A study of Homo sapiens with 6 samples.

Results

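Transcripts of 10 genes that encode non-collagen proteins of the extracellular matrix were followed in MO3.13 cells with and without exposure to Klotho. The genes were CCDC80, FBN1, FBN2, FN1, TNC, SPARC, THBS1, VCAN, POSTN and LOX. They were listed by name, and the list was chosen on earlier results of this comparison, in which CCDC80 stood among all genes, and FBN1 among matrix genes, with the smallest p-values. In the test described here, other matrix genes, FBLN2 and HAPLN2 among them, had smaller unadjusted p-values than FBN1. Each gene was read from the probe set annotated with that gene alone, and, where there were several, from the one with the highest mean over the 6 arrays. All 10 had such a probe set, of 14232 genes on the array that could be read this way. FN1 had 2 such probe sets and the other genes 1 each.

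MO3.13 is a human line that the submitters call an oligodendroglioma cell line. As background, it was made by fusing a rhabdomyosarcoma line with adult human oligodendrocytes. Klotho is a membrane and circulating protein that acts as a co-receptor for the hormone FGF23, and the title of the study asks how it affects signalling in this line. The cells of the 3 Klotho-treated samples had been given recombinant mouse Klotho at 0.4 µg/mL in DMEM free of serum for 3.5 h. The 3 control samples were described as grown in DMEM with 10% fetal bovine serum, antibiotics, glutamine and pyruvate, a growth medium stated for both groups. Serum-free medium is named for the treated group alone, so Klotho and the change of medium cannot be told apart. Nothing in the labels ties the 3 samples of a group to separate cultures, and p-values therefore reflect the spread among these samples, possibly a technical one.

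The matrix is built from fibrous, adhesive and space-filling proteins that cells secrete. Fibrillins assemble into microfibrils, on which elastic fibres form, and fibronectin is laid down by cells as fibrils to which other matrix proteins attach. Lysyl oxidase cross-links collagen and elastin. Versican is a large proteoglycan that binds hyaluronan. Tenascin-C, thrombospondin-1, SPARC and periostin are matricellular proteins, which alter how cells meet the matrix more than they hold it together. CCDC80 is a secreted protein of the matrix.

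The 6 arrays held 22011 probe sets with medians between 6.36 and 6.47 on the log2 scale. Of the 9 measured oligodendrocyte markers of 12 listed, 8 read below the median of all probe sets (6.40), among them SOX10, MOG and MBP, and 5 of 7 measured skeletal muscle markers read above the upper quartile (8.04), among them MYOD1, MYOG and DES. Both lists had exceptions. The oligodendrocyte marker CNP read 8.82, above the upper quartile, and the muscle markers MYF5 (3.63) and MYF6 (5.17) read below the median. Probe sets differ in how brightly they report a transcript, so these positions are rough. The mean of the oligodendrocyte list was 5.54 to 5.65 on control arrays and 5.56 to 5.74 on treated arrays, and that of the muscle list 8.33 to 8.37 and 8.29 to 8.34. The fibroblast list (11 of 12 measured) averaged 7.04 to 7.11 and 6.97 to 7.06, and the astrocyte list (8 of 8 measured, 7 below the median) 4.38 to 4.57 and 4.33 to 4.63. The part of such cell type genes in the values given here was not tested. In RNA from whole cultures, fewer cells of a type and less RNA per cell cannot be told apart.

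CCDC80 had the largest difference of the 10 genes, with a treated signal 0.696 times that of the controls, and none of the 10 passed the test over all probe sets. TNC was lower by a smaller amount, in groups that did not overlap. FBN1 and THBS1 had lower means but groups that overlapped, and FN1, FBN2, VCAN, SPARC, POSTN and LOX differed by less than 0.1 on the log2 scale. With limma, 0 of the 10 had an adjusted p under 0.05, against 0.0% of all 22011 probe sets. Before adjustment, 1 of the 10 (CCDC80) and 703 of all 22011 probe sets had a p under 0.05. By chance alone, 1101 of all probe sets would be expected to. Among all genes, 1.11% had such a p with lower treated values and 0.963% with higher. The smallest adjusted p among the 10 was 0.998. The CCDC80 difference was known when the list was drawn up, so it is given as a description.

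**Figure D1:**
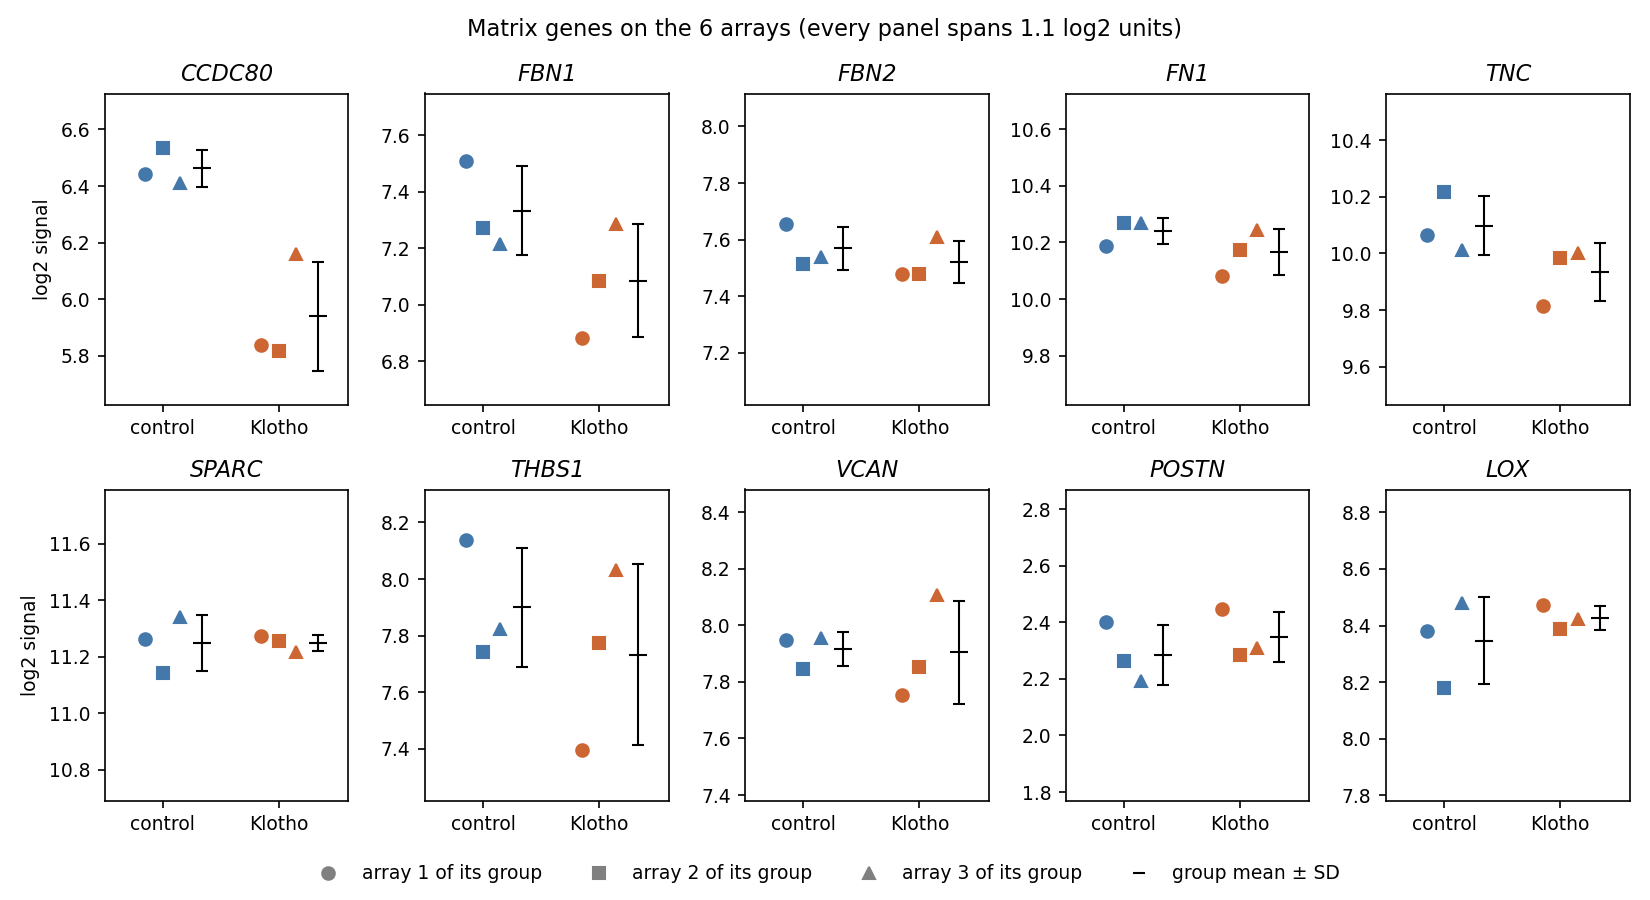
Log2 signal of each gene on the 3 control and 3 Klotho-treated arrays. Symbols mark the array number within its group, bars show the group mean and SD, and every panel spans the same 1.1 log2 units so that distances can be compared. The 3 treated values of CCDC80 (5.82 to 6.16) lie below its 3 control values (6.41 to 6.54), whereas those of SPARC (11.22 to 11.27) lie inside its control range (11.14 to 11.34).

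CCDC80 read 6.44, 6.54 and 6.41 on control arrays 1 to 3 and 5.84, 5.82 and 6.16 on treated arrays 1 to 3. All 3 treated values were below all 3 control values, with treated array 3 nearest to the controls. The control mean was 6.46 ± 0.07 and the treated mean 5.94 ± 0.19 (SD, n = 3, log2). The difference was -0.52 (SE 0.11, 95% interval -0.80 to -0.25), a ratio of treated to control signal of 0.696 (95% interval 0.575 to 0.843). Of the 14232 genes, 36 (0.253%) were lower by at least this much, CCDC80 included, and 37 (0.26%) were higher by as much. The CCDC80 probe set lay near the middle of the array, at a mean of 6.20 against a median of 6.40. Without treated array 3 the difference was -0.63, and without treated array 2 it was -0.46.

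The sequences upstream of CCDC80 and TNC are shown because these were the 2 genes whose groups did not overlap. They are the 250 bases before the annotated start of each gene in RefSeq, build GRCh38.p14, read 5′ to 3′ on the minus strand, at chr3:112641144-112641393 for CCDC80 and chr9:115118158-115118407 for TNC. Both strands were searched for TATAA (the core of a TATA box), CCAAT (bound by the factor NF-Y), GGGCGG (bound by Sp1), TGACTCA (bound by AP-1), GGAATG (bound by TEAD factors) and CAGCTG (an E-box), and matches are in capitals.
CCDC80: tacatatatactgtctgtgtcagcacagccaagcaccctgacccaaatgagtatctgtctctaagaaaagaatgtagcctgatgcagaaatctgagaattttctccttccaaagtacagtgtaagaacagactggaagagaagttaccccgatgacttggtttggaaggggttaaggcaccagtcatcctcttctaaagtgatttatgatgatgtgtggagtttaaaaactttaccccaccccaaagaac
TNC: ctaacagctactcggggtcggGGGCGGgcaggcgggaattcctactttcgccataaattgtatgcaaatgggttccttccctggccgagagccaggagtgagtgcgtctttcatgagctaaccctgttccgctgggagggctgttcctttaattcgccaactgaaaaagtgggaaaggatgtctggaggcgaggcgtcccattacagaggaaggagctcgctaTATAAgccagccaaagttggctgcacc
The CCDC80 stretch held none of the 6 motifs, which says only that these letters are not in this window. The TNC stretch held TATAA, with its first base at -27 from the start, and GGGCGG at -229. Over 35116 promoter stretches of the same length, 18.9% held TATAA, 42.6% GGGCGG, 32.0% CCAAT, 14.0% CAGCTG, 11.9% GGAATG and 4.2% TGACTCA. The CCDC80 stretch was 42.0% G and C and that of TNC 54.8%, against a median of 58.0%. Among the other genes, FN1 and VCAN held TATAA with its first base at -28 and -26, and POSTN held it at -29 and at other places. The FN1 stretch was the richest in G and C of the 10 (76.4%) and that of POSTN the poorest (36.4%). These matches are descriptions of sequence, and no binding was measured.

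TNC, which encodes tenascin-C, read 10.07, 10.22 and 10.01 in control and 9.82, 9.98 and 10.00 in treated cells. The groups did not overlap, but control array 3 and treated array 3 were only 0.01 apart. The difference was -0.16 (SE 0.10, 95% interval -0.39 to 0.07). Non-overlapping groups with lower treated values were found for 2 of the 10 genes, CCDC80 and TNC, against 5.3% of all genes. In the other direction there were 0 of the 10, against 2.59%. These shares of all genes turned with the scaling: median centring gave 2.14% lower and 4.88% higher, quantile normalization 2.71% and 3.46%, and cyclic loess 3.27% and 3.38%. With each array centred on its median, or with cyclic loess, the TNC groups overlapped (treated up to 10.02 and 10.00, control from 9.99 in both). The CCDC80 groups did not overlap under any of the 3 other scalings, with differences of -0.49 to -0.47.

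**Figure D2:**
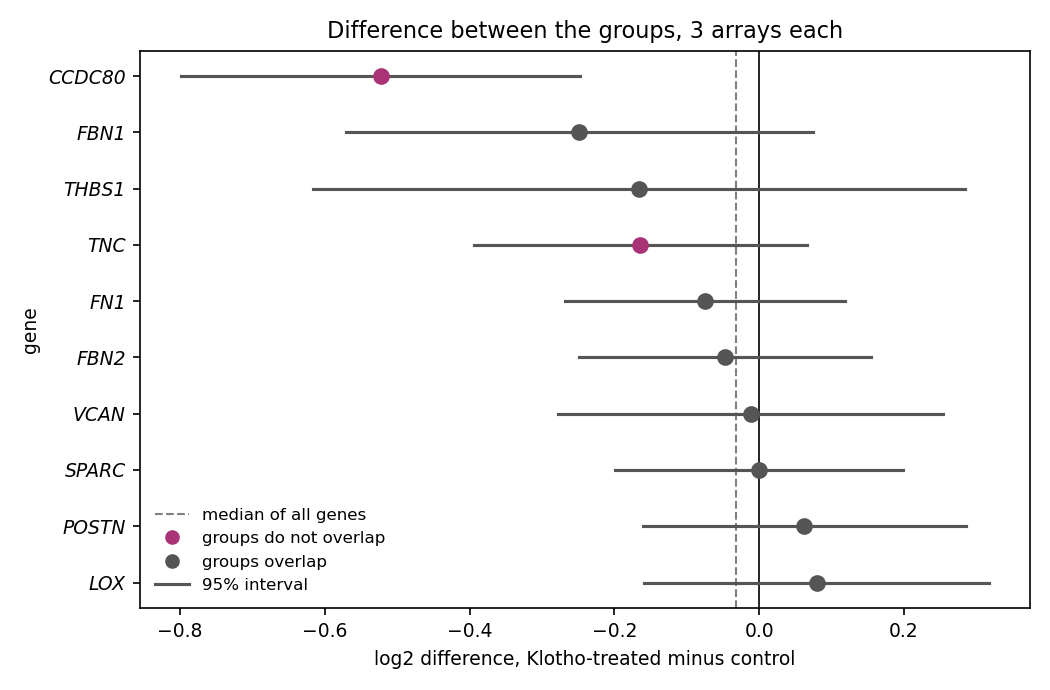
Log2 difference between the group means (treated minus control) for each gene, with its 95% interval from limma. The interval of CCDC80 (-0.80 to -0.25) lies wholly below 0 and those of the other 9 genes include 0; the dashed line is the median of all genes (-0.03).

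The fibrillin genes differed from each other in spread. FBN1, the main fibrillin of adult microfibrils, read 7.51, 7.27 and 7.22 in control and 6.88, 7.09 and 7.28 in treated cells. Treated array 1 was the lowest and treated array 3 lay inside the control range, so the groups overlapped. The difference was -0.25 (SE 0.13, 95% interval -0.57 to 0.07). Leaving out treated array 1 gave -0.15, leaving out control array 1 gave -0.16 and leaving out treated array 3 gave -0.35, where the interval ran from -0.68 to -0.02. FBN2, the fibrillin best known from development, read 7.66, 7.51 and 7.54 in control and 7.48, 7.48 and 7.61 in treated cells. Its 6 values spanned 0.18, against 0.63 for FBN1, and its difference was -0.05 (95% interval -0.25 to 0.15), or 0.00 to 0.02 under the 3 other scalings.

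FN1, which encodes fibronectin, read 10.19, 10.27 and 10.27 in control and 10.08, 10.17 and 10.24 in treated cells. The groups overlapped and differed by -0.07 (SE 0.08, 95% interval -0.27 to 0.12). The other FN1 probe set, which the choice by highest mean left out, had a mean of 5.49 against 10.20 for the chosen one. It read 6.10, 5.02 and 5.59 in control and 5.63, 5.48 and 5.11 in treated cells, a difference of -0.16 (95% interval -0.84 to 0.52). Its within-group SD was 0.43, against 0.07 for the chosen probe set, and no order of the groups can be read from it. LOX, the cross-linking enzyme, read 8.38, 8.18 and 8.48 in control and 8.47, 8.39 and 8.42 in treated cells. Its treated values lay inside the control range, with a difference of 0.08 (95% interval -0.16 to 0.32).

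THBS1 was the most variable of the 10 genes. Its transcript encodes thrombospondin-1, which binds cells and activates latent TGF-beta. It read 8.14, 7.74 and 7.82 in control and 7.40, 7.77 and 8.03 in treated cells. The treated arrays spanned more than the controls and enclosed control arrays 2 and 3. The difference was -0.17 (SE 0.19, 95% interval -0.62 to 0.28), with a within-group SD of 0.27 against a median of 0.12 over all genes. Leaving out treated array 1 gave 0.00, leaving out control array 1 gave -0.05 and leaving out treated array 3 gave -0.32. SPARC, a collagen-binding protein, read 11.26, 11.14 and 11.34 in control and 11.27, 11.25 and 11.22 in treated cells. Its means were 11.25 ± 0.10 and 11.25 ± 0.03 (SD, n = 3, log2), and the 95% interval of the difference ran from -0.20 to 0.20.

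VCAN, which encodes versican, read 7.95, 7.85 and 7.95 in control and 7.75, 7.85 and 8.11 in treated cells. Treated array 1 was the lowest and treated array 3 the highest of all 6, around a difference of -0.01 (95% interval -0.28 to 0.25), which was 0.04 to 0.05 under the 3 other scalings. POSTN, which encodes periostin, was dim. It read 2.40, 2.26 and 2.19 in control and 2.45, 2.28 and 2.31 in treated cells, a difference of 0.06 (95% interval -0.16 to 0.29). Its mean of 2.32 was higher than that of only 3.1% of probe sets, and a bound on so dim a signal need not bound the transcript. The other 9 genes were above the lower quartile of probe set means (4.70), and FN1, TNC, SPARC and LOX were above the upper quartile.

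The 95% interval excluded a change of 1.5-fold or more, up or down, for 8 of the 10 genes, the exceptions being CCDC80 and THBS1. A change of 2-fold or more was excluded for all 10. For FBN1 the 1.5-fold limit was cleared narrowly, with a lower bound of 0.673-fold. It was not cleared in some other settings, among them the replicate block (-0.68 to 0.18, log2) and without control array 3 (-0.70 to 0.08). Nor did the other FN1 probe set clear it (0.558 to 1.43-fold), and POSTN was dim. The levels of different genes were not ranked, since each probe set has its own brightness. Within a gene, the order of the 2 groups was control above treated for 8 genes and treated above control for POSTN and LOX. For SPARC the means differed by less than 0.001. Over all 14232 genes, 62.6% had a lower mean in treated cells, and the count of 8 in 10 is read against that share and is no result about these genes. The median difference of the 10 was -0.06, against -0.03 for all genes.

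That count moved with the scaling of the arrays. With each array centred on its median, 5 of the 10 were lower (42.7% of all genes), with quantile normalization 5 (46.8%) and with cyclic loess 5 (50.3%). CCDC80, FBN1, THBS1, TNC and FN1 were lower under the deposited values and all 3 other scalings. FBN2, VCAN and SPARC were lower as deposited and higher under all 3. POSTN and LOX were higher under all 4. The median of the 10 was then between -0.03 and -0.01, and that of all genes between 0.00 and 0.02.

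**Figure D3:**
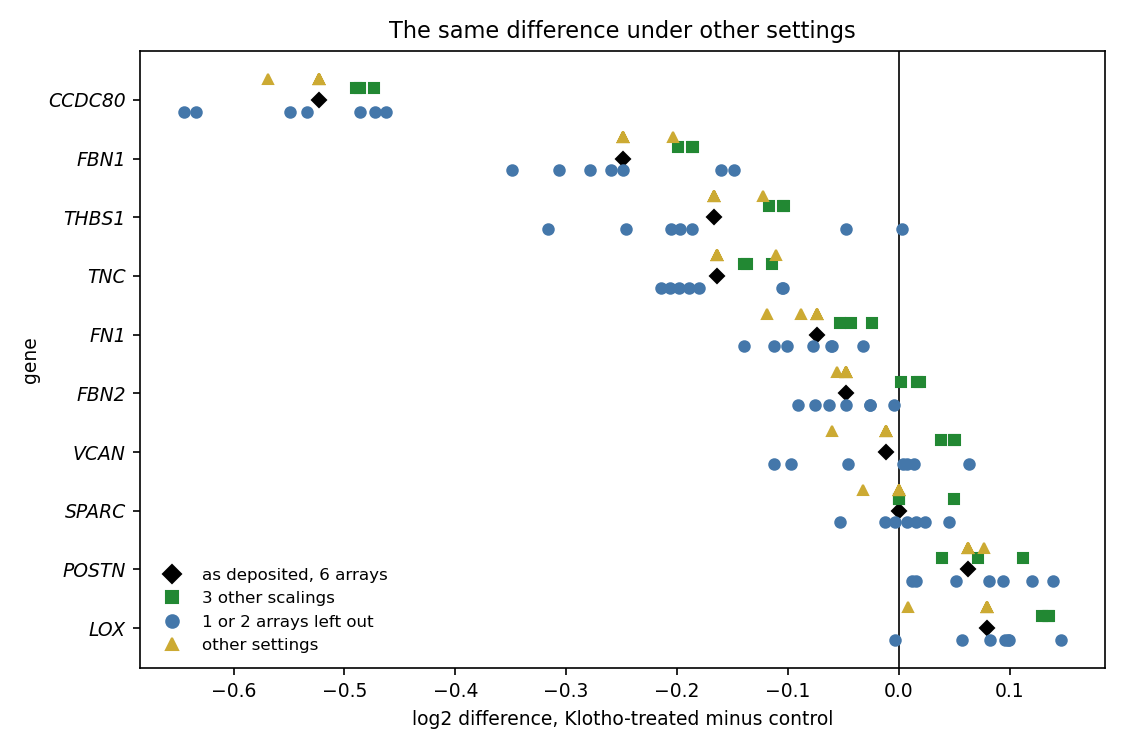
The log2 difference of each gene (treated minus control) as deposited, under 3 other scalings, with 1 or 2 arrays left out and under the other settings. CCDC80 stays between -0.64 and -0.46, while the points of VCAN, SPARC, FBN2, THBS1 and LOX fall on both sides of 0.

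Several of the genes shared a pattern across the arrays of a group. Treated array 1 was the lowest of all 6 arrays for 6 of the 10 genes: FBN1, FBN2, FN1, TNC, THBS1 and VCAN. Treated array 3 was the highest treated array for 7 genes: the same 6 and CCDC80. Control array 1 was the highest of all 6 for FBN1, FBN2 and THBS1. The share of all genes with these positions was not counted, so the counts are no result about these genes. The whole arrays moved the same way by smaller amounts. The array median was lowest on treated array 1 (6.36) and highest on control array 1 (6.47). Among treated arrays it was highest on array 3 (6.41). The median of all probe sets was 0.07 above its 6-array mean on control array 1 and 0.05 below it on treated array 1. THBS1 was 0.32 above and 0.42 below its own mean on the same arrays. The part of this array-wide shift in the differences of single genes was not tested beyond the scalings given above.

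**Figure D4:**
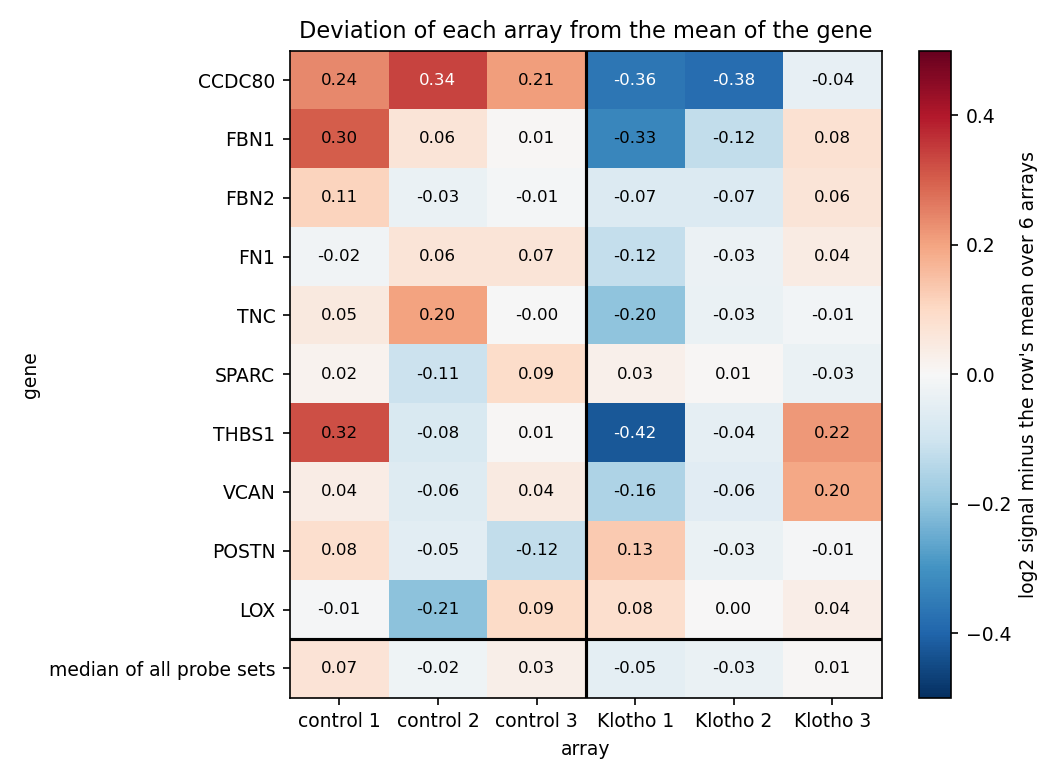
Log2 signal of each gene on each array, minus the mean of that gene over the 6 arrays, with the same for the median of all probe sets in the last row. The column of treated array 1 is below 0 for 7 of the 10 genes, down to -0.42 for THBS1, and the last row runs only from -0.05 to 0.07.

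Across the 6 arrays, the signals of FBN1 and THBS1 correlated at r = 0.92, those of FBN2 and THBS1 at 0.88 and those of FBN1 and FBN2 at 0.87. These 3 genes also went with the array median (r = 0.87, 0.89 and 0.84 for FBN1, FBN2 and THBS1). SPARC and LOX correlated at 0.88, and their r with the array median was 0.31 and 0.13. TNC and LOX ran opposite to each other (r = -0.84), as did FN1 and POSTN (-0.84). Over the 45 pairs the median r was 0.18, with 6 pairs at 0.8 or more and 2 at -0.8 or less. All these values rest on the same 6 arrays and are descriptions. CCDC80 was nearest to TNC (r = 0.81) among the other 9. Both had groups apart, and that split enters this r. With group means taken out, r with CCDC80 was 0.59 for TNC, 0.75 for VCAN, 0.69 for FN1 and 0.61 for FBN1.

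The genes whose pattern was most like that of CCDC80 over the 6 arrays were N4BP1 (r = 0.990), TBX19 (0.986), NUDC (0.985), WBP1L (0.978) and PPIG (0.963). They were taken by r from 5517 genes that were not dim and varied at least as much as the median gene, of which 42 reached an r of 0.9. Over 6 arrays, an r this high can also arise between unrelated genes. Shared regulation with CCDC80 was not tested. All 5 had treated values wholly below their control values, as their likeness to CCDC80 implies. PPIG, which encodes a nuclear cyclophilin, read 7.52, 7.78 and 7.47 in control and 6.94, 7.08 and 7.33 in treated cells, a difference of -0.47. The other differences were -0.29 for N4BP1, -0.22 for TBX19, -0.30 for NUDC and -0.38 for WBP1L.

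Other non-collagen matrix genes were taken from 6 lists, in which 69 of 82 genes were measured. With limma, 0 of the 69 passed over all probe sets, and 2 had an unadjusted p under 0.05, 1 in each direction. These were FBLN2, against 1.11% of all genes lower, and HAPLN2, against 0.963% higher. As deposited, 43 of the 69 (62.3%) were lower in treated cells, against 62.6% of all genes. With median centring, quantile normalization and cyclic loess, 26, 30 and 33 were lower (37.7%, 43.5% and 47.8%). Of all genes, 42.7%, 46.8% and 50.3% were lower under these scalings. Their groups did not overlap for 4 with lower treated values (5.8%, against 5.3% of all genes) and 2 with higher (2.9%, against 2.59%), shares near those of all genes. The balance turned under the other scalings, as it did for all genes. It was 1 lower and 4 higher after median centring (2.14% and 4.88% of all genes). After quantile normalization it was 0 and 5 (2.71% and 3.46%), and after cyclic loess 1 and 6 (3.27% and 3.38%).

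The elastic fibre and microfibril genes, the partners of the fibrillins, were 10 lower and 7 higher of 17 measured, with a median of -0.02. The lower share was 58.8%, against 62.6% of all genes. The balance turned with the scaling. With median centring, quantile normalization and cyclic loess, 5, 6 and 6 were lower, with medians of 0.03, 0.04 and 0.04. Their lower shares were 29.4%, 35.3% and 35.3%, against 42.7%, 46.8% and 50.3% of all genes. FBLN2, which encodes the microfibril-associated protein fibulin-2, had an unadjusted p under 0.05, with a control mean of 8.11 ± 0.10 and a treated mean of 7.85 ± 0.01 (SD, n = 3, log2). Its difference was -0.25 (95% interval -0.45 to -0.06), and that of FBLN1, fibulin-1, was -0.18 (95% interval -0.40 to 0.03). The groups of both were apart as deposited. Those of FBLN1 overlapped under all 3 other scalings, and those of FBLN2 under quantile normalization and cyclic loess. The relatives of LOX had 2 lower and 1 higher of 3 (66.7% lower, against 62.6%), with LOXL2 at -0.11 and LOXL1 at -0.07. The matricellular genes, the relatives of TNC, THBS1 and SPARC with the CCN family, were 15 lower and 4 higher of 19. Their median was -0.04, and their lower share was 78.9%, against 62.6% of all genes. Under the other scalings 8 to 10 were lower (42.1% to 52.6%, against 42.7% to 50.3% of all genes). SMOC2, a relative of SPARC, differed by -0.18 and SPOCK2 by -0.10.

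The hyaluronan-related genes, to which VCAN is akin, were 6 higher and 3 lower of 9 as deposited. The same split was found under each of the 3 other scalings. Their lower share was 33.3%, against 62.6% of all genes as deposited. With median centring, quantile normalization and cyclic loess, 42.7%, 46.8% and 50.3% of all genes were lower. Of the 9, 8 read below the median of all probe sets and 2 were dim. The list was not tested as a set. Its median difference was 0.07 as deposited. HAPLN2, which links hyaluronan to proteoglycans in the brain, had a control mean of 5.68 ± 0.05 and a treated mean of 5.90 ± 0.06 (SD, n = 3, log2), groups that did not overlap and a difference of 0.22 (95% interval 0.04 to 0.40). NCAN, which encodes neurocan, differed by 0.20 (95% interval -0.06 to 0.46). The small leucine-rich proteoglycans were 5 lower and 6 higher of 11 (45.5% lower, against 62.6% of all genes). Of the 11, 7 were dim, with BGN, biglycan, at -0.18 and ASPN, asporin, at 0.09. The remaining glycoproteins were 8 lower and 2 higher of 10 (80.0% lower, against 62.6% of all genes). Among them, the basement membrane genes NID2 and NID1 stood at -0.17 and -0.11. Under the other scalings 5 or 6 were lower (50.0% or 60.0%, against 42.7% to 50.3% of all genes). The adjusted p of each of these 12 genes was 0.998.

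**Figure D5:**
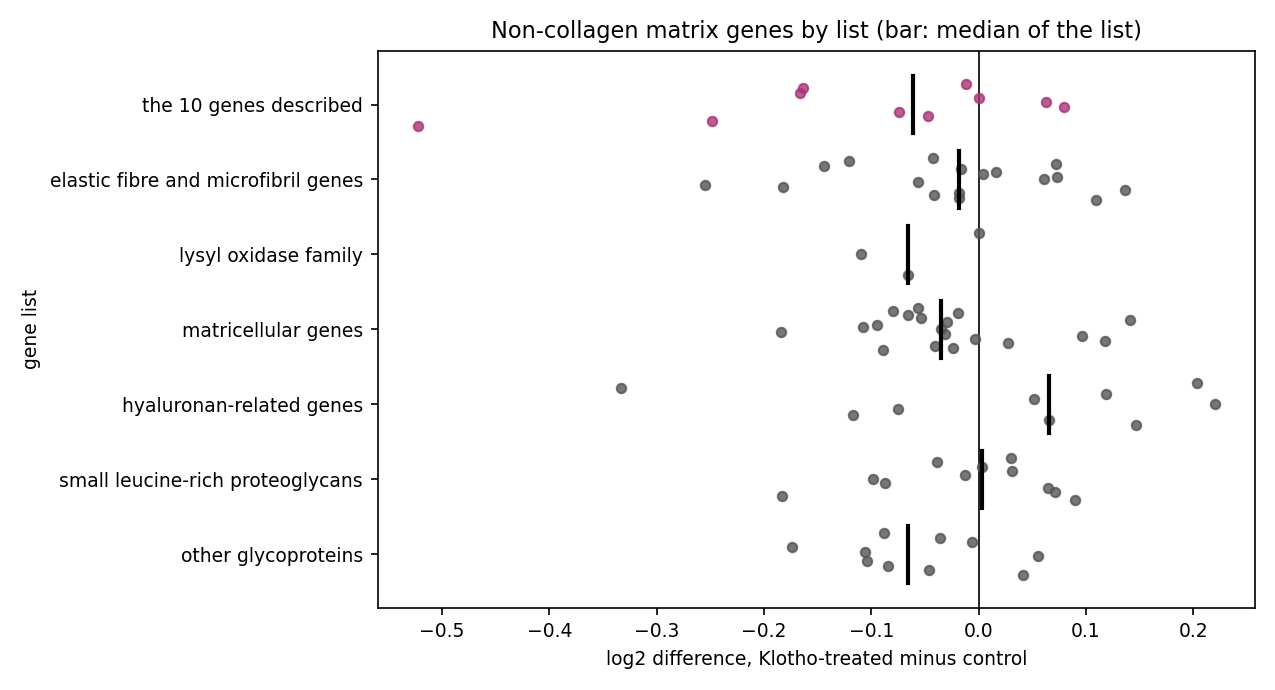
Log2 difference (treated minus control) of every measured gene in the 6 other lists and in the 10 genes described, with the median of each list as a bar. Medians run from -0.07 to 0.07, and CCDC80, at -0.52, is the lowest point of all.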

How the data were processed

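The authors deposited 1 table of log2 values, 1 per probe set and array, for 3 control and 3 Klotho-treated samples; the submitters' processing notes name RMA, without a version. Per the labels' protocols, biotinylated cDNA was made by NuGEN amplification from 100 ng of RNA. The software, annotation and probe set filter behind the table are not stated in the sources used here. No intensities or detection calls were used, so RMA was not rerun and dim probe sets were kept. Arrays have no read depth, and precision is limited by their number.

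Of 22011 probe sets, 14432 had 1 gene symbol, 2408 several and 5171 none; those with several named no gene. All 10 genes matched RefSeq (GRCh38.p14) by Entrez number. A 2-sided limma test (version 3.58.1, R 4.3.3; lmFit, then eBayes) was run on all probe sets, with p-values adjusted by Benjamini-Hochberg and called under 0.05. The 95% intervals use limma's moderated variance. The fit was tested on simulated data with planted changes larger than any difference of the 10 genes and without array-wide shifts. That test does not bear on changes as small as those described here.

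The genes, the lists and the alternatives were chosen with earlier results of these data known. Named are the 10 genes, up to 2 genes per list with the smallest p, and the 5 genes with the highest r with CCDC80, leaving out dim or little varying genes, uncharacterised loci, small RNAs and olfactory receptors. Alternatives were 3 scalings, filters, variance models, array weights, a replicate block, the mean of a gene's probe sets and arrays left out.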

Additional observations from a re-analysis of the deposited data

How the results depend on the processing

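The number of probe sets past the adjusted threshold was 0 under all 16 alternatives run for it, and the number of the 10 genes past it was 0 under all 17, with each array left out in turn among them. The number of lower genes was 5 with median centring, 5 with quantile normalization and 5 with cyclic loess, and ranged from 6 to 9 with 1 array left out. Their median difference ranged from -0.11 to -0.02 with 1 array left out and from -0.12 to -0.01 over all alternatives. The CCDC80 difference kept its sign in 17 of 17 alternatives (-0.64 to -0.46, limma adjusted p 0.463 to 1.0), as did those of FBN1, TNC and FN1, and that of POSTN in 16 of 16. For all 10 genes many of these outcomes were fixed in advance, so such counts overstate how stable a sign is. Filters that kept a gene, variance models and the block left its difference as it was. So did the mean of probe sets, except for FN1, which had 2 probe sets. For CCDC80 and TNC, with groups apart, leaving out or weighting arrays could not turn the sign either, so only the 3 scalings could have. The sign differed in 7 alternatives for VCAN, 7 for SPARC, 3 for FBN2, 1 for THBS1 and 1 for LOX. With the replicate number as a block, 8 of the 10 genes were lower with a median of -0.06, 0 passed, and the 95% interval of CCDC80 ran from -0.87 to -0.18. Deviations of arrays with the same number correlated at -0.18, 0.06 and -0.14. The largest value of any control and treated pair was 0.24, for control array 1 and treated array 3. So few arrays cannot show whether any of them shared a culture or a batch. The filter on dim probe sets left out POSTN, leaving 9 genes with a median of -0.07. The precision is limited by 3 arrays per group and, for POSTN, by a dim signal.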
